A study of Homo sapiens with 6 samples.

Results

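EHF and 9 other transcription factors of the ETS family were followed between CD133+ and CD133- fractions of HCT116 cells, a long-established line from a human colorectal carcinoma. The 10 genes were EHF, ELF3, ELF1, ELF4, ETS1, ETS2, ETV4, ETV5, ELK3 and GABPA, out of 27 ETS family genes and 18404 genes measured in all. They were listed by name, with earlier results of these data known. EHF was chosen for its difference between the fractions, which had been seen in these same arrays, so its values are given as a description without a test. Where a gene had more than 1 probe set, the one selected on the highest mean over the 6 arrays was kept, which mattered for GABPA alone among the 10.

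The 6 arrays comprised 3 of CD133+ cells and 3 of CD133- cells, numbered as repetitions 1, 2 and 3 in each fraction. No treatment separates the fractions other than sorting by CD133, a surface glycoprotein encoded by PROM1. All arrays come from 1 cell line. Whether the repetitions were grown or sorted separately is not in the labels, so each p-value reflects the spread among these arrays alone, part of which may be technical. Values are log2 signals after Robust Multichip Average processing (RMA), in which each array has been background corrected and normalized. A difference is CD133+ minus CD133-, and a difference of 1 is a doubling of signal. Signals of separate probe sets are not comparable as amounts of RNA, so levels are compared only within a gene. In sorted bulk RNA, fewer cells carrying a transcript and less transcript per cell cannot be told apart.

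ETS proteins share a winged helix-turn-helix domain that binds DNA around a GGAA core, and they act as activators or repressors depending on the member and its partners. EHF and ELF3, with ELF5, form the epithelium-specific branch, whose members are known for roles in epithelial differentiation, including in the gut. ETS1 and ETS2 are founding members that respond to Ras and ERK signalling and are active in invasive and mesenchymal cells. ETV4 and ETV5 belong to the PEA3 branch and are transcribed in response to ERK signalling. ELF1 and ELF4 are broadly expressed ELF factors, ELK3 is a ternary complex factor that works with SRF, and GABPA is the DNA-binding subunit of GABP, a regulator of mitochondrial genes.

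The windows around the annotated starts of EHF and ELF3, the closest relatives among the 10 genes, are shown because their transcripts differed so unlike each other between the fractions. Each runs 5′ to 3′ from 250 bases before to 50 after a RefSeq start in GRCh38.p14, and capitals mark each GGAA core, or TTCC where the core lies on the other strand. The EHF windows are chr11:34624007-34624306 and chr11:34632316-34632615, both on the plus strand, and the ELF3 window is chr1:202010337-202010636, also on the plus strand.
EHF, first start: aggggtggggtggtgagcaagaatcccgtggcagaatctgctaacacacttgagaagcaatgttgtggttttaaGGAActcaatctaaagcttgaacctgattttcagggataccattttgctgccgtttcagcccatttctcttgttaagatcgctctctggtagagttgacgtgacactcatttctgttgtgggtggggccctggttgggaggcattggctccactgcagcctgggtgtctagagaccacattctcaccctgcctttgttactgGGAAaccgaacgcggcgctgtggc
EHF, second start: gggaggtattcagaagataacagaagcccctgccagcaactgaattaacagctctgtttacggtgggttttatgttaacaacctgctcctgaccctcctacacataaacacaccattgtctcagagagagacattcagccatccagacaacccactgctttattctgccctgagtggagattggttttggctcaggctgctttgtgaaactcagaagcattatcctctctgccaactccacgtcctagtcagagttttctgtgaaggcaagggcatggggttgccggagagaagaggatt
ELF3: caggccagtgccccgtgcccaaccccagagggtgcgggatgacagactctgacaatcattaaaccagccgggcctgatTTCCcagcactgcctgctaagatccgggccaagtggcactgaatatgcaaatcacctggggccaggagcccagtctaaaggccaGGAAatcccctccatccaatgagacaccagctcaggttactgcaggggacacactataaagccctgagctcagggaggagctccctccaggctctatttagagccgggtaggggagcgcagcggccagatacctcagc

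The first EHF window holds 2 cores, beginning at bases 75 and 277, and the second holds 0. The ELF3 window also holds 2 cores, at bases 79 and 163. Of 35116 RefSeq windows of this length, 95.5% hold at least 1 core on either strand, with a median of 3. The longer ETS site CCGGAAGT, or ACTTCCGG on the other strand, which contains the core, is in 4.14% of all windows and in neither gene's windows. The E-box CACCTG, or CAGGTG on the other strand, a sequence bound by ZEB and SNAI repressors, is in 20.6% of all windows. It occurs in the ELF3 window at base 131 and has no match in either EHF window. Among the 10 genes, 7 had windows in the table (EHF, ELF1, ELF3, ELF4, ELK3, ETS2 and GABPA), 14 windows in all, with 0 to 8 cores each. The long site was in 1 of these windows, that of GABPA. These are matches of letters and are not evidence of binding.

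EHF was higher in CD133+ cells in every repetition. Its probe set (7939314) measured 6.43, 6.88 and 6.92 in CD133+ repetitions 1, 2 and 3, and 4.43, 4.57 and 4.18 in the CD133- arrays of the same numbers. All CD133+ arrays were therefore high and all CD133- arrays low, with a gap of 1.86 between the lowest CD133+ and the highest CD133- array, and 0 of the 18404 genes had a wider gap. The differences within repetitions were 2.00, 2.31 and 2.73. Their mean was 2.35 with an SD of 0.37 (n = 3 repetitions), which is 5.08-fold. Only PROM1, on whose product the cells were sorted, had a larger mean difference. The CD133- signals lay under 5.53, the median of the probe set means, and the CD133+ signals above it. How much of the CD133- signal is array background was not tested.

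**Figure D1:**
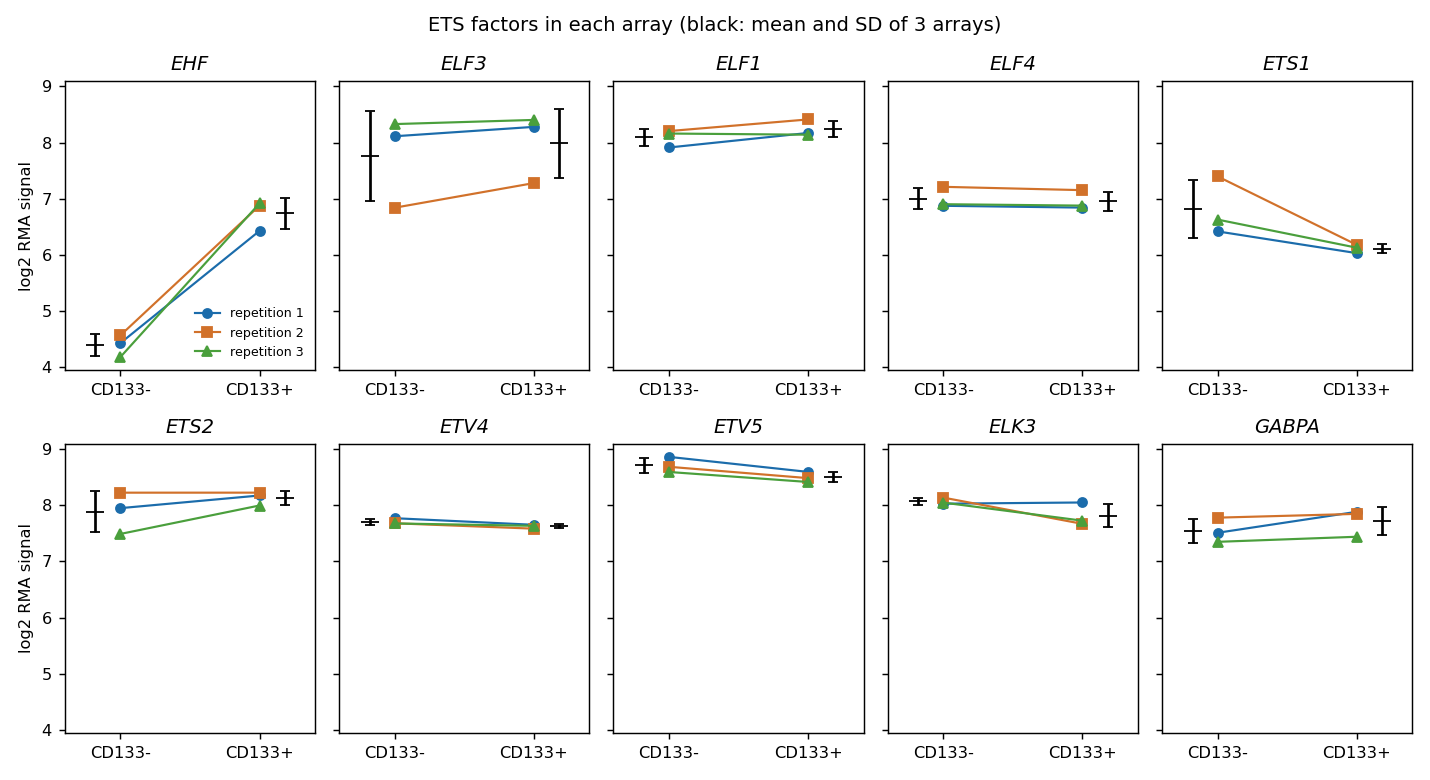
Log2 RMA signal (vertical axis) of the 10 ETS genes in CD133- and CD133+ arrays; a line joins the arrays of 1 repetition, and black marks give the mean and SD of 3 arrays. EHF runs from 4.18 to 4.57 in CD133- to 6.43 to 6.92 in CD133+ arrays, ETS1 is lower in each CD133+ array, and repetition 2 lies apart from the others in both fractions for ELF3 (low) and ELF4 (high); heights are not comparable between genes.

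ELF3, the other epithelium-specific factor of the 10, differed far less between the fractions than between repetitions. It measured 8.28, 7.28 and 8.40 in CD133+ repetitions 1, 2 and 3 against 8.11, 6.84 and 8.33 in CD133- cells. Both repetition 2 arrays were low, and the fractions overlapped. The differences were 0.17, 0.44 and 0.07, with a mean of 0.23 (SD 0.19, n = 3 repetitions), and all had the same sign. When single arrays were left out it ran from -0.23, without CD133- repetition 2, to 0.58, without CD133+ repetition 2, fits in which the low repetition was represented in 1 fraction alone. The third epithelium-specific gene, ELF5, is the next protein-coding gene to EHF on chromosome 11. It lay under the median signal in all 6 arrays, between 3.86 and 4.15, with a mean difference of -0.06.

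ETS1 was the member with the largest difference in the other direction. Its arrays read 6.03, 6.18 and 6.13 in CD133+ cells and 6.42, 7.40 and 6.63 in CD133- cells. Each CD133+ array was below each CD133- array, and CD133- repetition 2 stood highest. The differences were -0.39, -1.22 and -0.50, with a mean of -0.70 (SD 0.45, n = 3 repetitions), so that CD133- cells had 1.63-fold the CD133+ signal. The limma adjusted p over 28230 probe sets was 1.00 in the fit on group alone and 0.194 when the repetition entered as a replicate block, so ETS1 passed in neither fit. The unadjusted 95% interval with the block ran from -1.10 to -0.30. Without CD133- repetition 2 the difference was -0.41, and without both arrays of that repetition it was -0.44.

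ETS2, the close relative of ETS1, had a difference of the opposite sign. It read 8.17, 8.22 and 8.00 in CD133+ cells and 7.95, 8.22 and 7.49 in CD133- cells. The fractions overlapped, and the arrays of repetition 2 were level, so the mean of 0.24 (SD 0.25, n = 3 repetitions) came from repetitions 1 and 3, at 0.23 and 0.51. ETS1 and ETS2 each have another ETS gene as the next protein-coding neighbour. FLI1, beside ETS1 on chromosome 11, had a difference of 0.05, and ERG, beside ETS2 on chromosome 21, had 0.25, both from probe sets under the median signal.

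The PEA3 factors ETV4 and ETV5 were slightly lower in CD133+ cells in every repetition. ETV5 read 8.59, 8.48 and 8.41 in CD133+ cells and 8.86, 8.68 and 8.59 in CD133- cells. Its CD133- array was the higher in each repetition, although CD133+ repetition 1 lay level with CD133- repetition 3. The differences of -0.27, -0.20 and -0.18 averaged -0.22 (SD 0.05, n = 3 repetitions), with an unadjusted 95% interval from -0.41 to -0.02 in the block fit and a limma adjusted p of 0.391. ETV4 read 7.65, 7.58 and 7.63 against 7.77, 7.68 and 7.68. Its fractions did not overlap, but the mean difference was -0.09 (SD 0.04, n = 3 repetitions) and the block interval, -0.28 to 0.11, held 0. ETV1, the remaining PEA3 gene, had a difference of 0.01, whose sign turned under renormalization.

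The remaining members, ELK3, ELF1, ELF4 and GABPA, had mean differences between -0.26 and 0.18. ELK3 read 8.05, 7.67 and 7.73 in CD133+ cells and 8.03, 8.14 and 8.05 in CD133- cells. It was lower in repetitions 2 and 3 and level in repetition 1, with a mean of -0.26 (SD 0.25, n = 3 repetitions). ELF1 read 8.17, 8.41 and 8.14 against 7.91, 8.20 and 8.16, a mean of 0.15 (SD 0.15, n = 3 repetitions), and its repetition 3 arrays were level.

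ELF4 had the smallest spread of differences over the repetitions among the members. It read 6.84, 7.15 and 6.88 in CD133+ cells and 6.88, 7.21 and 6.90 in CD133- cells, so that only repetition 2, high in both fractions, stood out. Its mean difference was -0.04 (SD 0.02, n = 3 repetitions), with a block interval from -0.23 to 0.15, and it turned positive, to at most 0.07, in 3 of the 6 fits that left out 1 array.

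GABPA depended on the probe set. The kept probe set (8133030, mean 7.63) read 7.88, 7.85 and 7.44 in CD133+ cells and 7.51, 7.78 and 7.35 in CD133- cells, a mean difference of 0.18 (SD 0.17, n = 3 repetitions). The other one (8068039, mean 6.94) gave -0.08, 0.31 and -0.25 in repetitions 1, 2 and 3, with a mean of -0.0048. The 2 probe sets thus disagreed in sign in repetitions 1 and 3, and GABPA has no settled direction here. Whether either of them lies on a near-identical copy of the gene was not checked.

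Apart from EHF, for which no test is given, 0 of 9 members passed at a limma adjusted p under 0.05. Over all 28230 probe sets 0.00354%, which is 1, passed in the fit on group alone and 0.298% with the replicate block. Among the 18403 genes other than EHF, 0 passed in the fit on group alone and 67 with the block. At an unadjusted limma p under 0.05, 1 of the 9 (ETS1) was counted in the fit on group alone, where 3.45% of probe sets were, and 2 (ETS1 and ETV5) with the block, where 11.3% were. Of the 9, 0 had all CD133+ arrays above all CD133- arrays, against 3.43% of genes, and 2 (ETS1 and ETV4) had all below, against 4.52%. Higher in all 3 repetitions were ELF3, ETS2 and GABPA, against 17.7% of genes, and lower in all 3 were ELF4, ETS1, ETV4 and ETV5, against 18.4%. ETS2 counted as higher in repetition 2 by less than 0.01, and GABPA counted as higher on its kept probe set alone. Nothing particular to the 9 genes can be read from counts this small. The median absolute difference was 0.22 for the 9, which were chosen with earlier results of these data known. It was 0.08 for the 17 measured family genes that are not members and 0.09 over all genes.

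**Figure D2:**
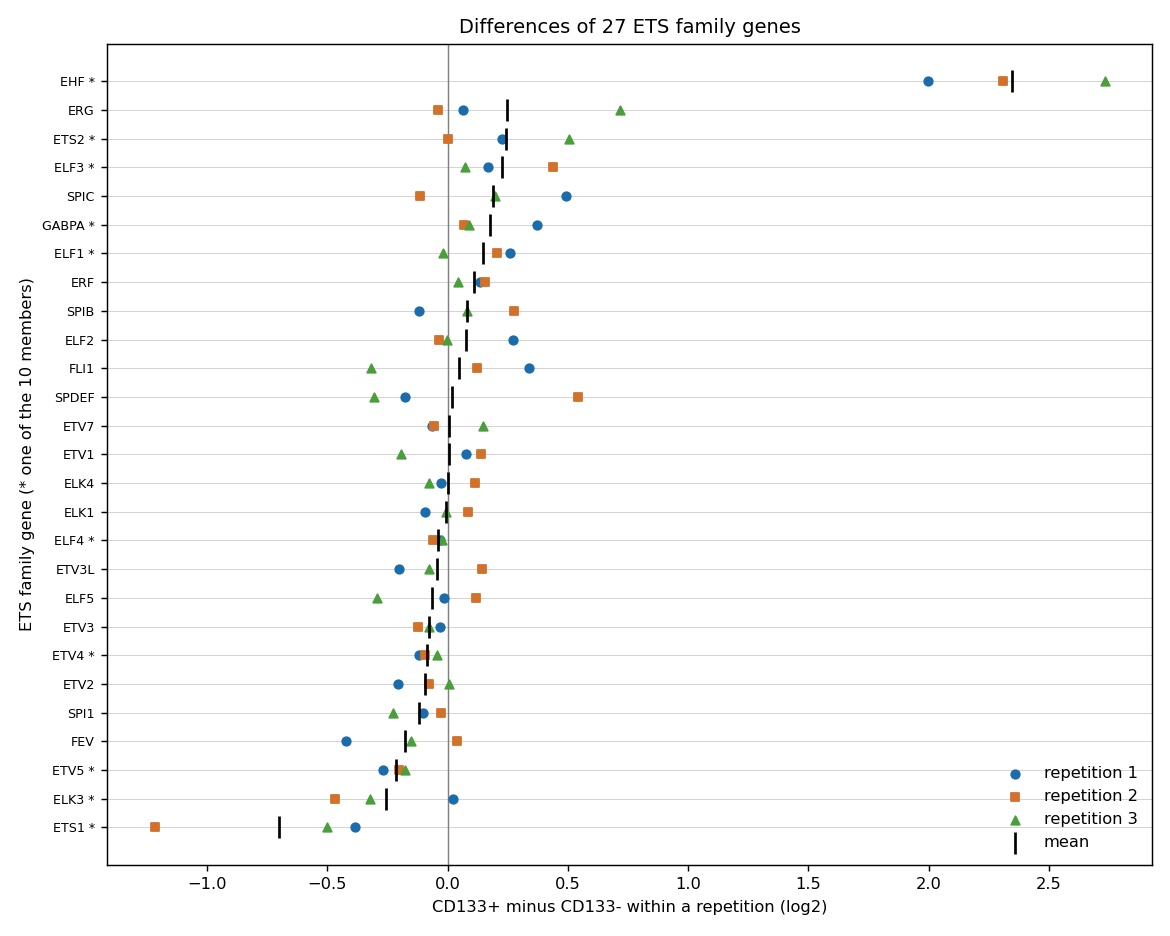
CD133+ minus CD133- log2 difference (horizontal axis) of 27 ETS family genes (vertical axis) within repetitions 1, 2 and 3 (coloured symbols) and their mean (black bar). EHF lies at 2.00 to 2.73, and every other gene lies between -1.22 and 0.72; the sign of ETV1 and ELK4 near 0 turned when the arrays were renormalized.

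EHF stood above the whole family in each repetition. In repetition 1 its difference of 2.00 compared with 0.49 for the next family gene, SPIC. In repetition 2 it was 2.31 against 0.54 for SPDEF, and in repetition 3 it was 2.73 against 0.72 for ERG. All 26 other measured family genes were below EHF in each repetition, which is a description, because EHF was picked for this contrast.

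Of these 26 genes, 14 had a mean difference above 0 and 12 below, with a median of 0.0046 beside -0.0064 over all genes. That median ran from -0.06 to 0.04 over the alternatives, on both sides of 0. With limma 0 of the 26 passed in either fit, and at an unadjusted p under 0.05 there were 1 in the fit on group alone and 2 with the block, against 3.45% and 11.3% of all probe sets. Among the 17 that are not members, the largest absolute mean differences were those of ERG (0.25), an endothelial factor, of SPIC (0.19) and SPI1 (-0.12), factors of blood cells, and FEV (-0.18), a neuronal factor. ERG owed its value to 1 array, CD133+ repetition 3 at 4.95 beside 4.23 to 4.34 in the other 5, with differences of 0.06, -0.04 and 0.72 in repetitions 1, 2 and 3. ERF, an ETS repressor, was the only one of the 17 whose fractions did not overlap, at 7.78, 7.74 and 7.75 in CD133+ cells against 7.64, 7.58 and 7.71, a mean of 0.11 (SD 0.06, n = 3 repetitions; limma adjusted p = 0.670 with the block). It was singled out after its values were seen. The probe sets of 7 family genes, ELF5, ERG, ETV2, ETV3L, ETV7, FLI1 and SPIC, had means under the median signal.

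Splitting each gene's variation over the 6 arrays separated EHF from the other members. This is a description, because EHF was picked for its difference between the fractions. For EHF, 97.4% of the sum of squares lay between the fractions, 1.03% between repetitions and 1.61% in the residual. For ELF4 and ELF3 it was the reverse, with 98.0% and 94.7% between repetitions. These are shares of each gene's own variation. The repetition means spanned 0.29 for EHF and 0.32 for ELF4, and 1.31 for ELF3. GABPA, ETS2 and ELF1 also varied most between repetitions, at 71.1%, 61.0% and 56.6%. ETS1, ETV4, ETV5 and ELK3 had 57.7%, 57.1%, 56.5% and 51.9% between the fractions, although for ETV4 the total variation was small, all 6 arrays lying between 7.58 and 7.77. Over all genes the median shares were 8.21% between fractions and 67.8% between repetitions.

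**Figure D3:**
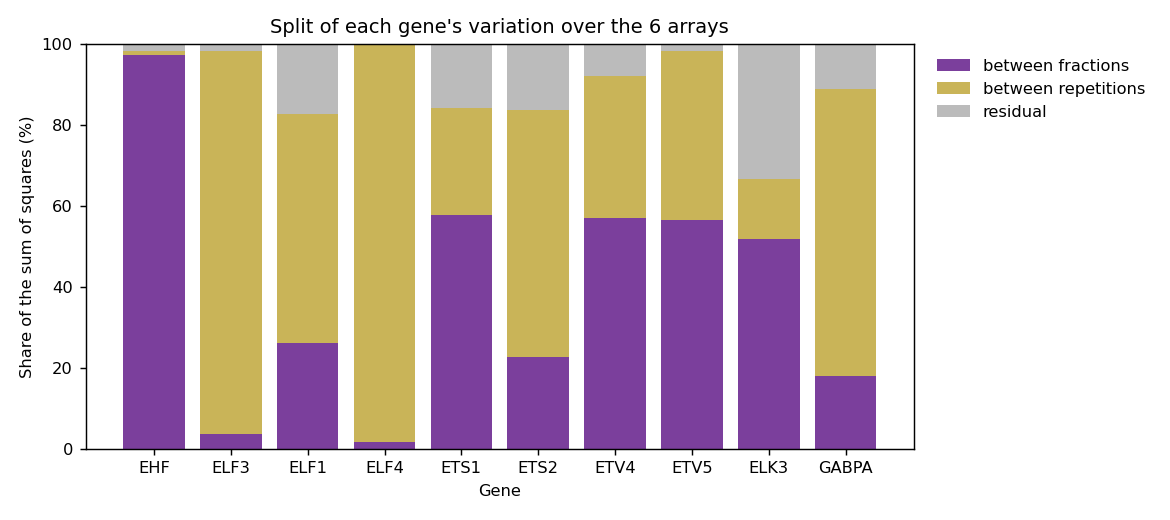
Share of the sum of squares over 6 arrays in percent (vertical axis) that lay between the fractions, between repetitions and in the residual, for each of the 10 genes (horizontal axis). Nearly the whole EHF bar is between fractions (97.4%), while for ELF3 and ELF4 94.7% and 98.0% lie between repetitions. EHF was picked for its difference between the fractions.

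The chromosomal neighbours of EHF had differences between -0.25 and 0.19. The 3 nearest measured genes before it in the RefSeq order are ABTB2, CAT and ELF5, and the 3 after it are APIP, PDHX and CD44. Their mean differences were -0.20 for ABTB2, 0.13 for the catalase gene CAT, -0.06 for ELF5, 0.19 for APIP of methionine salvage, 0.04 for PDHX of the pyruvate dehydrogenase complex and -0.25 for CD44, a hyaluronan receptor. ABTB2 and CD44 were lower in all 3 repetitions, against 18.4% of genes, and CAT was higher in all 3, against 17.7%.

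The genes whose profiles over the 6 arrays were closest to that of EHF were ranked by root mean square distance between gene-centred log2 values. They were taken from 9202 genes above the median of gene means, a higher cut than the 5.53 of probe set means. EHF itself, with a mean of 5.57, lay under this cut and was compared all the same. The 6 closest were ADGRF1, an adhesion G protein-coupled receptor, at a distance of 0.37, NRIP1, a nuclear receptor corepressor, at 0.38, the cytokine gene IL18 at 0.48, ARHGAP18 at 0.68, S100A14, an epithelial calcium-binding protein, at 0.68 and MAL2, of apical transport, at 0.69. Like EHF, ADGRF1, NRIP1 and IL18 had a larger difference in repetition 3 (2.14, 2.70 and 1.97) than in repetition 1 (1.32, 1.74 and 1.47). So did ARHGAP18 (1.28 against 0.85) and S100A14 (1.54 against 0.80). MAL2 was even, at 0.96, 1.14 and 1.05. The 3 profiles nearest to the mirror image of EHF were PEG10, an imprinted retrotransposon-derived gene, at 0.47, the transcription factor gene GLIS3 at 0.52 and MAP1B, a microtubule-binding protein, at 0.56. They were lower in CD133+ cells by means of -1.54, -1.40 and -1.41. The distances use the contrast for which EHF was picked and carry no test. Of the 16 other ETS genes that were ranked, ETS2 was the closest at 1.07 (rank 502 of 9202) and ETS1 the farthest at 1.55 (rank 9156).

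**Figure D4:**
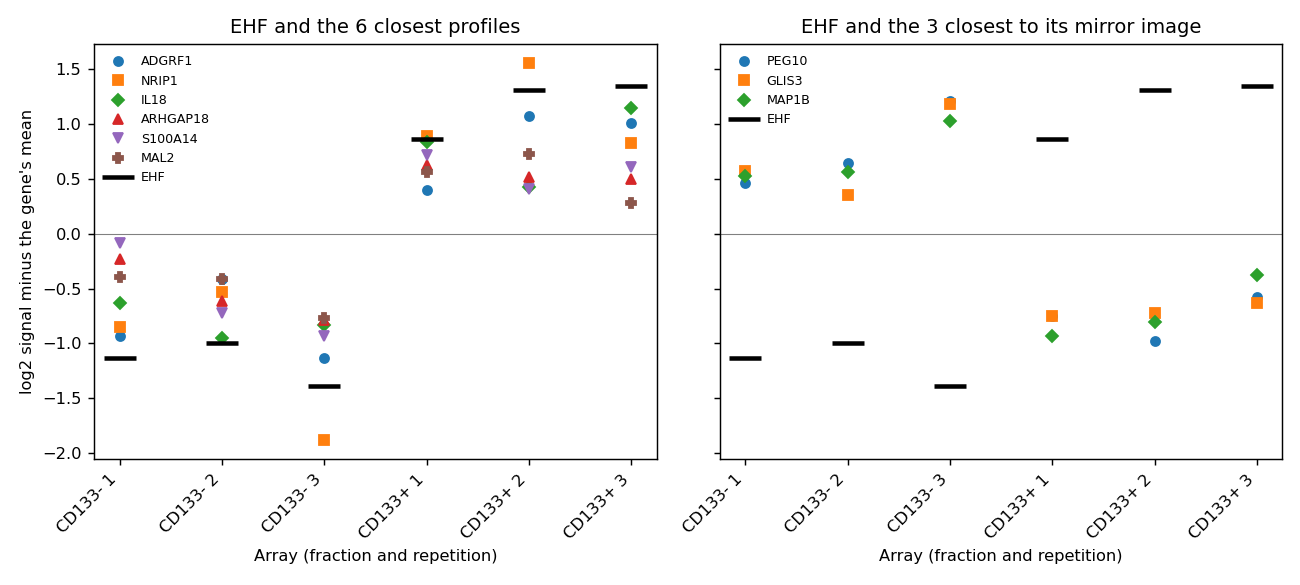
Log2 signal minus each gene's mean (vertical axis) in the 6 arrays (horizontal axis) for EHF (black bars), the 6 genes with the closest profiles (left) and the 3 closest to its mirror image (right). EHF, ADGRF1, NRIP1 and IL18 are below 0 in each CD133- array and above 0 in each CD133+ array, and PEG10, GLIS3 and MAP1B run the other way.

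Genes named as EHF or ELF3 targets in other epithelial cells include activated and repressed ones, so their signs need not be alike. Of 23 measured, 9 had a difference above 0 and 14 below, with a median of -0.04, beside 8817 of 18404 genes above 0 and a median of -0.0064 over all genes. The median became 0.13 when probe sets under the median signal, which 12 of the 23 exceeded, were left out. CLDN7, a tight junction claudin, read 9.45, 9.30 and 9.34 in CD133+ cells against 9.12, 8.66 and 8.87, a mean of 0.48 (SD 0.16, n = 3 repetitions). ZEB1, a repressor of epithelial genes, read 4.89, 4.89 and 5.19 against 5.68, 5.71 and 5.64, a mean of -0.69 (SD 0.21, n = 3 repetitions). The mean of the ZEB1 probe set over the arrays, 5.33, lay under the median signal. Neither fraction overlapped the other for these 2 genes, but 0 of 23 passed, with limma adjusted p of 0.143 and 0.0798 in the block fit. In all, 3 of the 23 had every CD133+ array above every CD133- array: CLDN7, TWIST1 (0.22) and PTGS2 (0.27, under the median signal). The 2 with every CD133+ array below were ZEB1 and KRT8 (-0.24). Over all genes these shares were 3.43% and 4.52%. At an unadjusted limma p under 0.05 there were 2 of 23 in the fit on group alone and 8 with the block, 5 higher and 3 lower, beside the 3.45% and 11.3% of all probe sets. The adhesion gene CDH1 differed by 0.38, 0.74 and 0.09 in repetitions 1, 2 and 3.

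Other epithelial transcription factors had 10 of 15 members above 0 and a median of 0.05. GRHL2, a grainyhead factor, read 7.41, 7.13 and 7.02 in CD133+ cells and 6.81, 6.61 and 6.67 in CD133- cells, without overlap, with a mean of 0.49 (SD 0.13, n = 3 repetitions; limma adjusted p = 0.121 with the block). KLF4, of differentiating epithelium, had 0.25. With limma 0 of 15 passed in either fit, with 1 and 3 at an unadjusted p under 0.05, against 3.45% and 11.3% overall among probe sets. The list's median kept its sign in every alternative but ranged from 0.01 to 0.13.

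Partners and regulators of ETS factors had 6 of 14 members above 0 and a median of -0.04. MED23, a Mediator subunit through which ELK1 and ELF3 act, read 7.51, 7.25 and 7.21 against 7.79, 7.72 and 7.78, a mean of -0.44 (SD 0.15, n = 3 repetitions), and JUN, an AP-1 subunit that binds beside ETS1, had -0.36. GABPB1, the partner of GABPA, differed by -0.03, and CBFB by 0.06. RUNX1, the DNA-binding partner of CBFB, had -0.30, without overlap between the fractions (limma adjusted p = 0.264 with the block). In both limma fits 0 of 14 passed, with 2 and 4 at an unadjusted p under 0.05, where 3.45% and 11.3% of all probe sets were counted.

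ERK feedback genes, 3 of which are the PEA3 factors themselves, had 4 of 15 members above 0 and a median of -0.07. SPRY2, an inhibitor of receptor tyrosine kinase signalling, read 6.56, 6.30 and 6.47 in CD133+ cells and 7.14, 6.98 and 7.42 in CD133- cells, without overlap. Its mean difference was -0.74 (SD 0.19, n = 3 repetitions), with limma adjusted p = 0.0608 in the block fit. ETV5 followed in absolute size, and PHLDA1 had the highest difference, 0.21, positive in all 3 repetitions. DUSP6, an ERK phosphatase, had -0.18. In both limma fits 0 of 15 passed, with 1 and 2 at an unadjusted p under 0.05, against 3.45% and 11.3% of all probe sets.

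Protease genes known as targets of ETS1 and the PEA3 factors had 3 of 11 members above 0. The median signal was exceeded by 4 of 11, against 11250 of 18404 genes. The differences with the largest absolute values were those of urokinase and its receptor. PLAU read 8.33, 8.39 and 8.86 in CD133+ cells against 8.03, 7.97 and 8.35, a mean of 0.41 (SD 0.11, n = 3 repetitions), and PLAUR had 0.31. The list's median was -0.0098, and 0.15 without the dim probe sets. With limma 0 of 11 passed in either fit, with 0 and 2 at an unadjusted p under 0.05, against 3.45% and 11.3% of all probe sets.

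Mitochondrial genes known as GABP targets were above 0 in 15 of 15 members, with a median of 0.11. Over all genes 8817 of 18404 were above 0, with a median of -0.0064. The list was not tested as a set. Its median was 0.04, 0.08 and 0.21 within repetitions 1, 2 and 3, where 10, 13 and 14 of 15 were above 0. SDHD, a complex II subunit, had 0.35, and 0.32 on its other probe set, and COX5B, of complex IV, had 0.23. With limma 0 of 15 passed in either fit, with 0 and 1 at an unadjusted p under 0.05, where the shares of all probe sets were 3.45% and 11.3%.

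**Figure D5:**
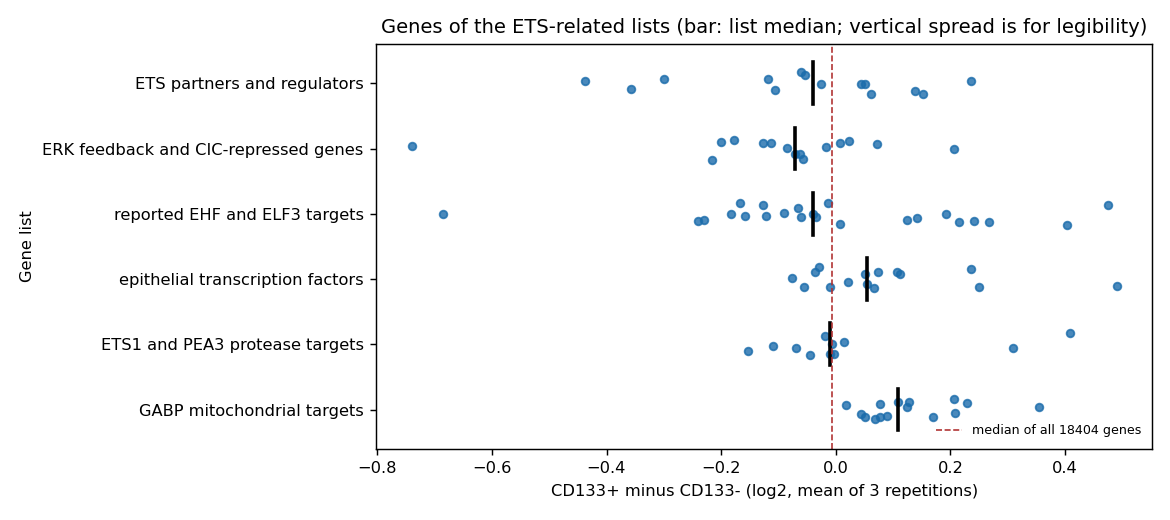
CD133+ minus CD133- log2 difference (horizontal axis) of each measured gene in 6 lists (vertical axis); black bars are list medians and the dashed line is the median of all genes, -0.0064. Genes of most lists spread to both sides of 0, with SPRY2 (-0.74) and ZEB1 (-0.69) lowest, and the 15 GABP targets all lie above 0. The ZEB1 probe set had a mean under the median signal.

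Of the colorectal epithelium markers, 6 of 9 exceeded the median signal, while the intestinal genes VIL1, KRT20 and LGALS4 did not. Over all genes 11250 of 18404 exceeded it, so this count does not check the identity of the cells. The mean signal of these markers was 8.30 to 8.39 over the CD133+ arrays and 8.18 to 8.40 over the CD133- arrays. Of the 9, 6 had a difference above 0, with a median of 0.05. CDH1 had 0.40 and EPCAM 0.22, or 0.30 on its other probe set, whereas KRT18 had -0.48, or -0.38 on its other probe set, and KRT8 had -0.24. With limma 0 of the 9 passed in either fit, with 1 and 3 at an unadjusted p under 0.05, against 3.45% and 11.3% of all probe sets. Of markers of cells in which other ETS genes are prominent, 2 of 10 leukocyte, 1 of 7 endothelium and 1 of 7 fibroblast markers exceeded the median signal. The count over all genes was the same 11250 of 18404. The mean over the leukocyte markers was 4.15 to 4.20 in CD133+ and 4.16 to 4.40 in CD133- arrays, that over the endothelium markers 4.03 to 4.13 and 3.99 to 4.17, and that over the fibroblast markers 4.23 to 4.46 and 4.30 to 4.57. These means set the fractions side by side within a list and do not compare lists. The largest absolute differences in these lists were -0.31 for CD53 and -0.28 for LAPTM5, 0.16 for EMCN and -0.12 for PECAM1, whose other probe set gave 0.08, and -0.21 for COL3A1 and -0.19 for COL1A1. With limma 0 of these 24 genes passed in either fit, and 0 had an unadjusted p under 0.05, against the same 3.45% and 11.3%.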

How the data were processed

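Biotin-labelled total RNA was hybridised to Affymetrix whole-transcript arrays, per the labels. The deposited values are log2 signals that the authors made with RMA, per the labels' design text and the submitters' processing notes. No source used here gives its version. A U133 array is named in the design text, but the row identifiers are those of a Human Gene ST array, whose annotation was used. A leading block of 4091 of 32321 rows, with identifiers below the first annotated one, was left out as controls, leaving 28230 probe sets. Of these, 19158 carried 1 symbol, for 18404 genes. Array medians lay between 5.44 and 5.60, and 0 columns were unused. The number of arrays limits the precision.

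CD133+ minus CD133- was fitted on all 28230 probe sets with limma 3.58.1 in R 4.3.3 (lmFit, eBayes) on group alone, with Benjamini-Hochberg adjustment and a threshold of 0.05. A check on simulated data covered only whether the fit recovered planted mean changes, and it does not vouch for the calls. Arrays of 1 number deviated together from the means of their fractions, with correlations of 0.447 to 0.616, above 0.1 in all 3 pairs, so the numbers pair the arrays by the data. A fit with a block for repetition was an alternative, as were other normalizations, filters, probe set rules and left-out arrays.

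The members and lists were chosen with earlier results of these data known. Named were the members, the 4 other family genes with the largest absolute difference, the 6 genes most like EHF and 3 most like its mirror image, 3 neighbours per side, and in each list the genes that passed plus the 2 with the largest absolute difference. Other genes were named after their values were seen. Of 28 family genes, 1 was not analysed here, and of 162 list entries 153 were measured. Promoter windows are from RefSeq (GRCh38.p14). An exact two-sided permutation test of 3 against 3 cannot go below 0.1 and was not used.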

Additional observations from a re-analysis of the deposited data

How the results depend on the processing

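The EHF difference of 2.35 ranged from 2.15 to 2.52 over 16 alternatives. The number of other members, of other family genes and of all listed genes that passed was 0 under each of these, including the replicate block, which changed no call. Of 144 recomputed differences of the other 9 members, 13 moved by at least the SD of that gene's differences over the repetitions (4 of ELF3, 6 of ELF4 and 3 of ETV5). The sign turned in 4, all fits that left out 1 array: ELF3 without CD133- repetition 2 (-0.23) and ELF4 without CD133+ repetition 1 (0.02), CD133+ repetition 3 (0.0011) or CD133- repetition 2 (0.07). Of 176 recomputed list medians, 18 moved by at least the SD of the list's medians over the repetitions. The family median turned sign in 6 of its 16 alternatives, those of the EHF and ELF3 targets and of the ETS partners in 2 each, of the protease genes and endothelium markers in 4 each and of the fibroblast markers in 1, and the other 5 list medians kept theirs. Of the 6 genes most like EHF, 4 were shared when the distance used the differences within repetitions, and 3 (ADGRF1, NRIP1 and IL18) without the filter on dim genes, where PROM1, SEMA3A and MACC1 came in. With 3 arrays per fraction and no detection call, signals under the median cannot be told from array background.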

Other observations

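The repetitions differed in genes of the ETS-related and marker lists across both fractions. Such differences were not particular to them, as the median share of variation between repetitions was 67.8% over all genes. The genes below were chosen after their values were seen. Averaged over both fractions, ELF3 measured 8.20, 7.06 and 8.37 in repetitions 1, 2 and 3. The adhesion gene CDH1 (8.75, 7.91 and 8.68), the claudin gene CLDN4 (8.42, 7.51 and 8.23), the AP-1 genes JUN (8.61, 7.42 and 8.35) and FOS (11.02, 9.84 and 10.57) and the collagen gene COL1A1 (7.83, 6.90 and 7.69) were also lowest in repetition 2. The mitochondrial transcription genes TFAM (8.34, 8.94 and 8.04) and TFB2M (7.43, 8.23 and 7.43) and the GABP subunit genes GABPB1 (7.17, 7.58 and 6.81) and GABPB2 (5.92, 6.41 and 5.43) were highest there. The repetition means of EHF were 5.43, 5.72 and 5.55. They spanned 0.29, beside 1.31 for ELF3, 0.32 for ELF4, 0.22 for ETV5 and 0.08 for ETV4. With 3 repetitions no relation between these genes was tested.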
